A study of Mus musculus with 11 samples.

Results

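The genes described here are the Wnt ligands, the Frizzled and Lrp receptors, the R-spondins and their Lgr receptors, the secreted Wnt antagonists, the feedback genes and the TCF/LEF factors of the embryonic mouse retina. They were chosen by a rule on gene symbols that uses no measured value, although earlier results of these data were known. Of the 13498 genes of the count table, 48 met the symbol rule. The rule matches 60 protein-coding symbols of the GENCODE annotation, and the other 12, such as Sp5, Frzb and Wnt1, were not analysed here. The 48 fell into 14 ligands, 10 Frizzled receptors, 2 Lrp co-receptors, 7 genes of the R-spondin branch, 8 antagonists, 3 feedback genes and 4 TCF/LEF factors. All 48 passed the filter on low counts and were tested.

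Total RNA was sequenced from pairs of retinas of NMRI embryos at E13.5. DKO embryos (3 libraries) carried Six3F/F, CAGGCre-ERTM and Six6–/–, Six3KO embryos (3 libraries) Six3F/F and CAGGCre-ERTM with Six6+/+, Six6KO embryos (2 libraries) Six3F/F with Six6–/– and no Cre, and WT embryos (3 libraries) Six3F/F with Six6+/+ and no Cre. Six3 and Six6 encode related homeodomain factors of the developing eye and forebrain. All 4 groups thus shared the floxed Six3 allele, and all dams received tamoxifen, 0.15 mL of a 20 mg/mL solution on both E10.5 and E11.5. CAGGCre-ERTM is a tamoxifen-dependent Cre with broad expression, so Six3 could be deleted outside the retina as well. It was present only in DKO and Six3KO, so its presence and the loss of Six3 cannot be told apart in comparisons with Six6KO or WT. The third Six6KO sample was removed by the submitters for high duplication.

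Wnt proteins are secreted ligands that bind Frizzled receptors together with Lrp5 or Lrp6, which stabilises beta-catenin and lets TCF/LEF factors switch on target genes. Several targets feed back on the pathway, among them Axin2, Nkd1, Notum and Lgr5. R-spondins bound to Lgr receptors protect Frizzled proteins from removal by the ubiquitin ligases Znrf3 and Rnf43, while Sfrp, Dkk and Wif1 proteins act outside the cell as antagonists. In the embryonic eye, beta-catenin signalling is known from the pigment epithelium and from the ciliary margin. The latter lies at the rim of a neural retina that keeps such signalling low.

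Library depth was 11965016 to 12659540 reads in DKO, 9786661 to 16403191 in Six3KO, 8867708 to 9166054 in Six6KO and 7807744 to 12505379 in WT. Six3 stood at 56.2 to 98.2 CPM (read counts scaled to TMM-adjusted library size) in DKO and 30.3 to 75.9 in Six3KO, against 142 to 307 in Six6KO and 164 to 299 in WT. Six6 stood at 52.8 to 99.8 CPM in DKO and 76.8 to 131 in Six6KO, against 168 to 339 in Six3KO and 225 to 340 in WT, so each library followed its label. All 8 markers of neural retina progenitors, of which 1 was the member Sfrp2, were measured. They summed to 2545 to 3426 CPM in DKO, 1919 to 3843 in Six3KO, 2523 to 4046 in Six6KO and 2837 to 4379 in WT. The 6 retinal neuron markers summed to 934 to 1419 CPM in DKO, 633 to 1900 in Six3KO, 994 to 1569 in Six6KO and 1185 to 2017 in WT. All 6 had log2 fold changes below 0 in DKO against WT (median -0.58), and 0 of them were called. Libraries of a group differed in markers of tissue that borders the retina. All 12 markers of periocular mesenchyme were measured and none was at 0 reads in any group. Their summed level was 50.6, 122 and 90.5 CPM in DKO libraries rh010, rh011 and rh021, and 1279, 397 and 3959 CPM in Six3KO libraries rh006, rh012 and rh026. It was 2372 and 1646 CPM in Six6KO libraries rh007 and rh020, and 2021, 384 and 2102 CPM in WT libraries rh016, rh023 and rh024. The 3 DKO libraries thus held the least, and Six3KO rh012 and WT rh023 stood apart from their own groups. The 8 surface ectoderm markers summed to 21.3 to 49.7 CPM in DKO, 45.2 to 333 in Six3KO, 137 to 213 in Six6KO and 47.5 to 357 in WT. Ciliary margin markers, 9 of 9 measured, summed to 887 to 1180 CPM in DKO, 469 to 1190 in Six3KO, 713 to 780 in Six6KO and 426 to 766 in WT. By the edgeR test used below, 1 of the 9 was called higher in DKO against WT and 1 lower. The higher was Zic1, with a mean of 341 CPM in DKO and 80.5 in WT (adjusted p = 0.00257). The lower was Cdo1, with means of 8.61 and 32.7 CPM (adjusted p = 0.0496). Of the 9 estimates, 6 lay above 0 and 3 below, so the sum does not stand for every marker. In these bulk samples, fewer cells of a type and less RNA per cell cannot be told apart. Values of the libraries of a group are given below in the order just used.

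The most abundant members were secreted antagonists and receptors, although both classes also held low members such as Apcdd1 and Fzd9. Per kilobase of exon, over all libraries, Sfrp2, a secreted Frizzled-related protein of the neural retina, stood at 434 CPM per kb. Dkk3, a divergent Dickkopf family member, stood at 234, Fzd5 at 52.5, Fzd3 at 51.9 and the R-spondin receptor Lgr4 at 37.6 CPM per kb. The highest ligand over all libraries was Wnt6 at 5.27 CPM per kb, and the lowest members were Rnf43 at 0.556 and Rspo2 at 0.340. In DKO alone the order of the ligands differed, with Wnt3a at 3.02, Wnt16 at 2.65, Wnt5b at 2.44 and Wnt6 at 0.843 CPM per kb. Summed over the 14 ligands, the level was 60.8, 72.3 and 49.9 CPM in DKO, 113, 72.2 and 322 CPM in Six3KO, 138 and 155 CPM in Six6KO and 188, 37.5 and 176 CPM in WT. The 3 DKO libraries and the mesenchyme-poor Six3KO rh012 and WT rh023 held the lowest ligand sums.

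**Figure D1:**
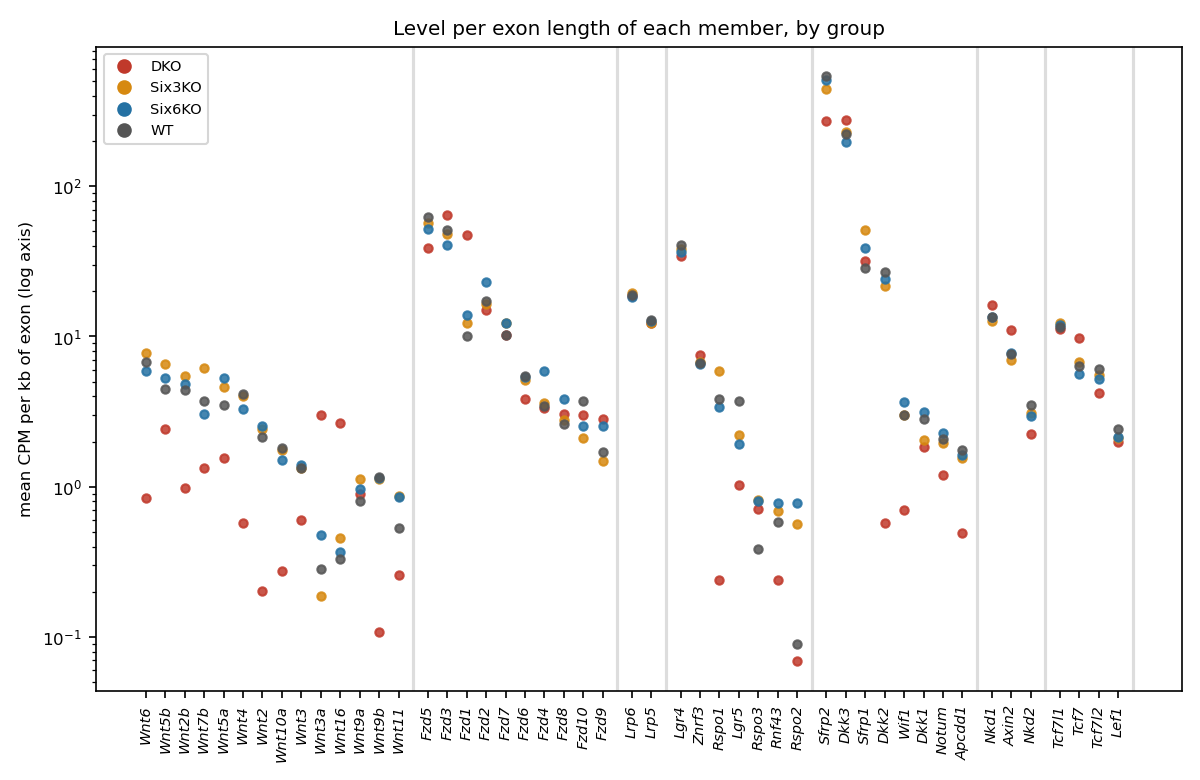
Mean level of each of the 48 members (horizontal axis, grouped by role) in CPM per kb of exon (vertical axis, log scale) in DKO, Six3KO, Six6KO and WT (colours; 3, 3, 2 and 3 libraries). Sfrp2 and Dkk3 stand at the top, and the group means of the ligands lie lowest in DKO, except for Wnt3a, Wnt16 and Wnt9a.

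In DKO retinas 1 member rose, Wnt3a, and 1 fell, Lgr5, relative to WT, by edgeR's quasi-likelihood test with Benjamini-Hochberg adjustment over all 13292 genes tested. Over all genes, 87 (0.655%) were called higher and 85 (0.639%) lower. At an unadjusted p under 0.05, 4 members were higher and 13 lower, which is 35.4% of members against 13% of all genes tested. The median log2 fold change was -0.49 over the members and -0.00 over all genes, with 34 of 48 estimates below 0. Ligands had a median of -1.32, antagonists -0.89, R-spondin branch genes -0.48, Frizzled receptors -0.03, Lrp co-receptors -0.04, TCF/LEF factors -0.15 and feedback genes 0.27. DESeq2 called 6 members (Dkk2, Fzd1, Lgr5, Rspo1, Wnt3a and Wnt9b) and 5.82% of all genes. Without the mesenchyme-poor WT rh023 and Six3KO rh012, an alternative added after seeing the data, 2 members were called higher and 8 lower, against 0.654% and 2.54% of all genes. With any of the 6 libraries of the comparison left out, 0 or 1 member was called.

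The spread between libraries of a group followed the mesenchyme markers for many members. WT rh023 was the lowest WT library for 33 of 48 members (68.8%, against 29.9% of all genes tested). Six3KO rh012 was the lowest Six3KO library for 31 members (64.6%, against 33.4% of all genes), and 27 members (56.2%, against 19%) were lowest in both. Among DKO libraries, rh021 lay closest to the WT mean for 26 members (54.2%, against 42.3%). With the mesenchyme score, the mean log2 CPM of the 12 markers, as a covariate, the median DKO estimate of the members was 0.94 and 35 of 48 lay above 0. This fit called 3 members higher (Wnt3a, Fzd1 and Wnt9a) and 1 lower (Lgr5), against 0.745% and 0.504% of all genes. Scores of the DKO libraries (-4.09 to -2.95, relative to the WT mean) lay below that of every other library (the lowest being -2.44 in WT rh023), so that this fit extrapolates for DKO.

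**Figure D2:**
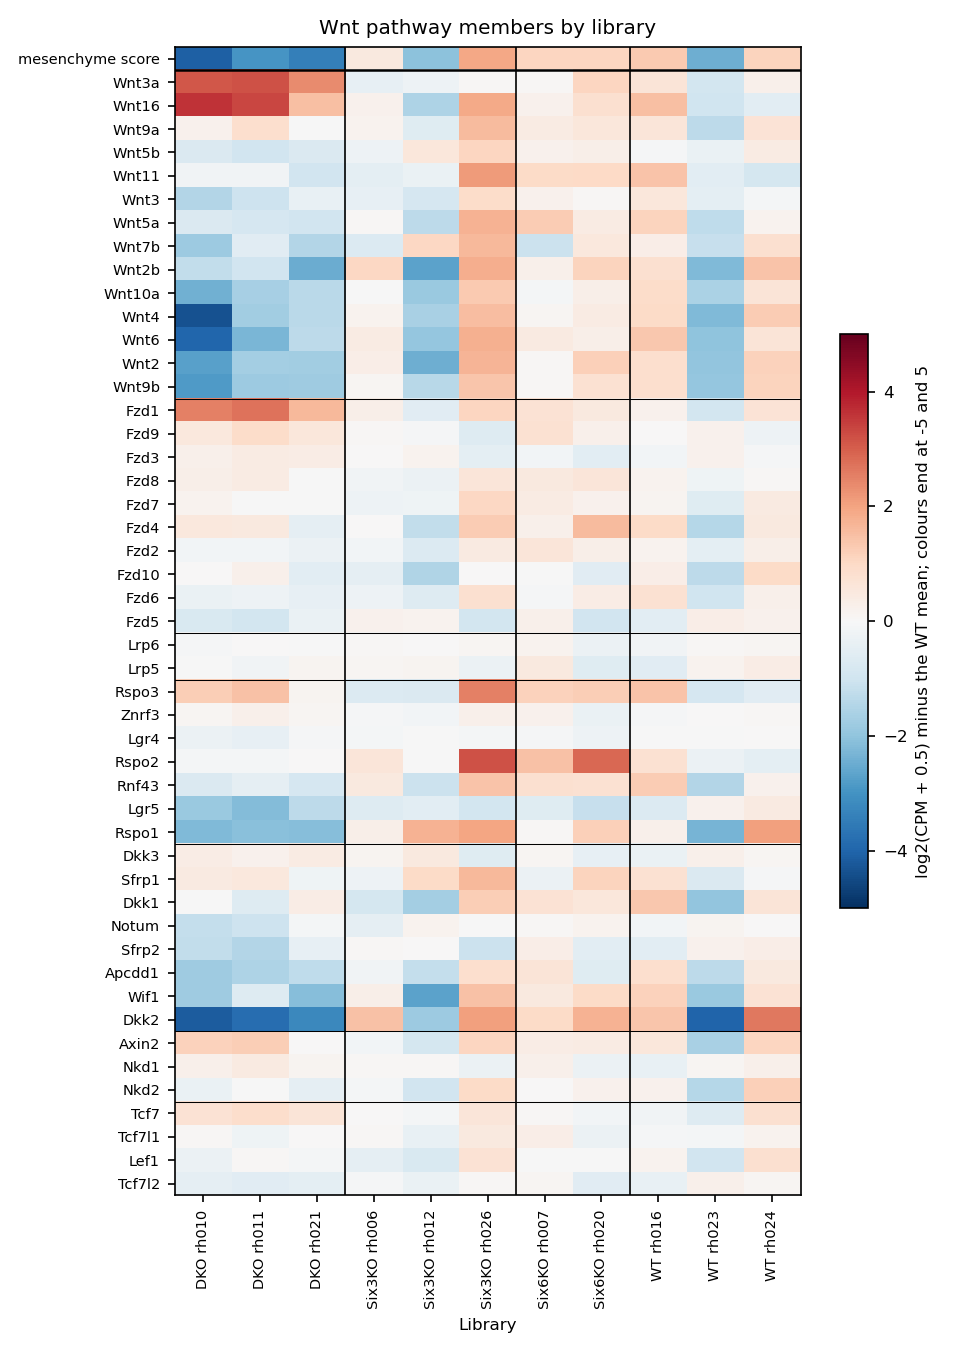
Log2(CPM + 0.5) of the 48 members (rows, by role) in the 11 libraries (columns), minus the WT mean, with the mesenchyme score in the top row; red is higher and blue lower. Most ligands, Dkk2 and Wif1 are blue in the 3 DKO libraries and also in Six3KO rh012 and WT rh023, as is the mesenchyme score, while Wnt3a and Fzd1 are reddest in the 3 DKO libraries.

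**Figure D3:**
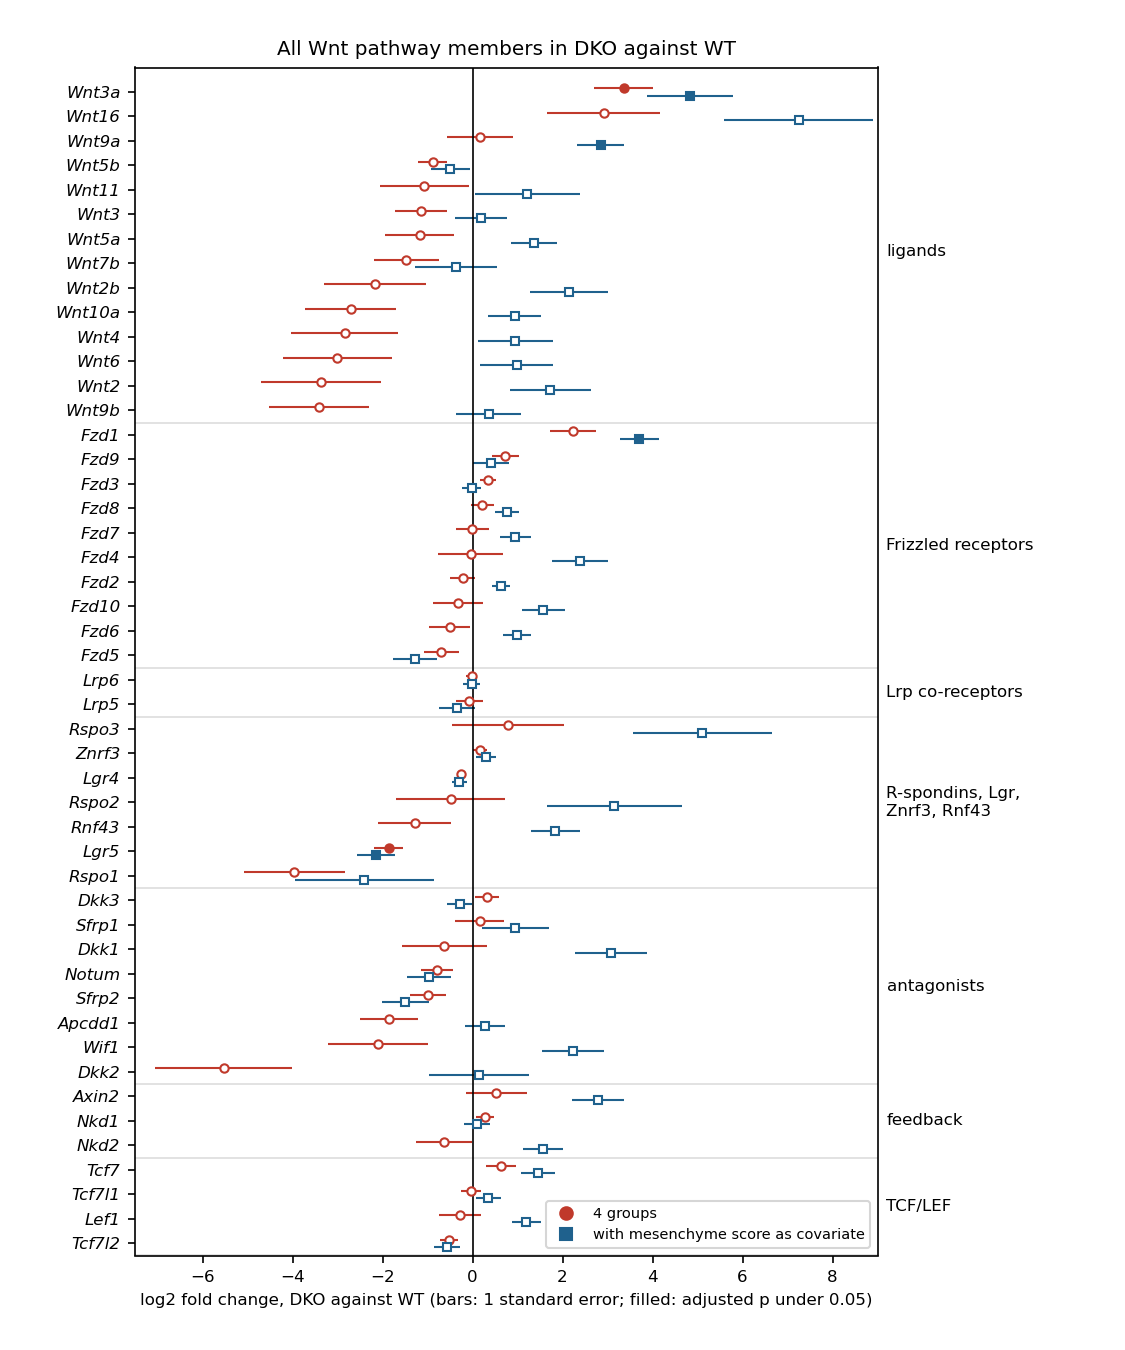
Log2 fold change of the 48 members in DKO against WT (horizontal axis; bars, 1 standard error; rows by role) from the fit with 4 group means (red circles) and with the mesenchyme score as covariate (blue squares); filled symbols have an adjusted p under 0.05. Wnt3a and Lgr5 are filled in both fits, Fzd1 and Wnt9a with the covariate only, and Wnt2b, Wnt4, Wnt6, Wnt9b and Dkk2 lie below 0 in the first fit and above 0 in the second.

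Wnt3a, a ligand that activates beta-catenin signalling in the cortical hem and dorsal neural tube, rose in DKO retinas. It had 9.43, 10.1 and 5.47 CPM in the DKO libraries, 0.365, 0.480 and 0.706 CPM in Six3KO, 0.696 and 1.93 CPM in Six6KO and 1.33, 0.116 and 0.892 CPM in WT. All 3 DKO libraries lay above the other 8, with rh021 the lowest of them. Behind these values were 115, 122 and 69 reads in DKO and 17, 1 and 7 reads in WT. The mean was 8.33 ± 2.5 CPM in DKO and 0.779 ± 0.614 CPM in WT (SD, n = 3 each), a log2 fold change of 3.36 ± 0.66 (standard error, edgeR adjusted p = 0.0476) or 10.3-fold. Against Six3KO, where both groups carry Cre, it was 4.01 ± 0.69 (adjusted p = 0.0393), or 16.1-fold. In that comparison Wnt3a alone rose and 0 members fell, against 0.331% of all genes higher and 0.256% lower. DKO against Six6KO gave 2.65 ± 0.75 (adjusted p = 0.172). The call against WT was lost with any of the 6 libraries left out, at estimates of 2.87 to 4.04 (adjusted p = 0.201 without rh010, 0.190 without rh011, 0.0519 without rh021, 0.0880 without rh016, 0.0702 without rh023 and 0.139 without rh024). The call against Six3KO remained without rh021 (adjusted p = 0.0471) and was lost without rh010 (0.173), rh011 (0.158), rh006 (0.110), rh012 (0.0830) or rh026 (0.0843). With the mesenchyme score as covariate the estimate against WT was 4.84 ± 0.96 (adjusted p = 0.0483).

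Wnt3a lies on chromosome 11 (59248033 to 59290752, minus strand, GRCm38), 16.2 kb from Wnt9a, which is on the plus strand. Wnt9a, named after seeing its values, stood at 2.62, 4.22 and 2.14 CPM in DKO, 2.49, 1.25 and 7.47 in Six3KO, 3.02 and 3.42 in Six6KO and 3.59, 0.578 and 3.82 in WT. The DKO and WT values of this neighbour overlapped, with a log2 fold change of 0.16 ± 0.73 (adjusted p = 0.974). Promoter windows of RefSeq (GRCm38.p6, from 250 bases before to 50 after a transcript start) matched 31 of the 48 members. Those of Wnt3a (chr11:59290702-59291001, minus strand) and of the receptor gene Fzd1 (chr5:4758167-4758466, minus strand) are shown, since these genes had the 2 largest estimates against WT among members whose DKO libraries stood above all others. The third Wnt5b window (chr6:119449337-119449636, minus strand) is shown because it holds the TCF/LEF core motif and Wnt5b lay below all other libraries in DKO. All run 5′ to 3′, with capitals for the 50 bases from the RefSeq transcript start on in Wnt3a and Fzd1 and for the motif in Wnt5b. The annotations differ for Fzd1, whose GENCODE gene ends at 4758035 on the minus strand, so that the RefSeq start lies outside it.
Wnt3a: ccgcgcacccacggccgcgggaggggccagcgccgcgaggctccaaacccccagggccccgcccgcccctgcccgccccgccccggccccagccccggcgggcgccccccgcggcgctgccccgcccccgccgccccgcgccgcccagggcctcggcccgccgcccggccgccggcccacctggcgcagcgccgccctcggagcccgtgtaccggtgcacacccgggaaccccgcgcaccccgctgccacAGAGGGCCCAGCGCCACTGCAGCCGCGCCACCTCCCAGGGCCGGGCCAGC
Fzd1: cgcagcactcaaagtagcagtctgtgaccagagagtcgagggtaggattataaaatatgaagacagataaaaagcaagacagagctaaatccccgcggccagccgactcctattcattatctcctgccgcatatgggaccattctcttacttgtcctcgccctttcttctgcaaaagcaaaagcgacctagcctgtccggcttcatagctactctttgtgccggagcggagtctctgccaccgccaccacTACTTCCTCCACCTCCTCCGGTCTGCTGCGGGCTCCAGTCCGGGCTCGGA
Wnt5b: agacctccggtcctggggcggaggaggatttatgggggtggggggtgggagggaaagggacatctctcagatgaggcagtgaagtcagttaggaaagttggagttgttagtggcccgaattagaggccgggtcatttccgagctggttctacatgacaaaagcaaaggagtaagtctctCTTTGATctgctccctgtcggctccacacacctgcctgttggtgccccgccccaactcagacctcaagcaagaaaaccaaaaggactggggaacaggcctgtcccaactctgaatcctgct
The Wnt3a window was 86.3% G or C with 45 CpG, that of Fzd1 54% with 16 CpG and that of Wnt5b 55% with 7 CpG, against medians of 61% and 20 over the windows of genes in the table. The core motif CTTTGAT, searched on both strands, was found in 2 of 40 member windows (5%), in Wnt11 and at position -71 in Wnt5b, against 2.5% of windows of table genes and 3.73% of all windows. TGATAC, a motif of SIX-type homeodomains added after seeing the data, was found in 1 member window (2.5%), that of Lef1, against 2.9% and 5.46%. Neither motif was present in these letters in the Wnt3a and Fzd1 windows.

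**Figure D4:**
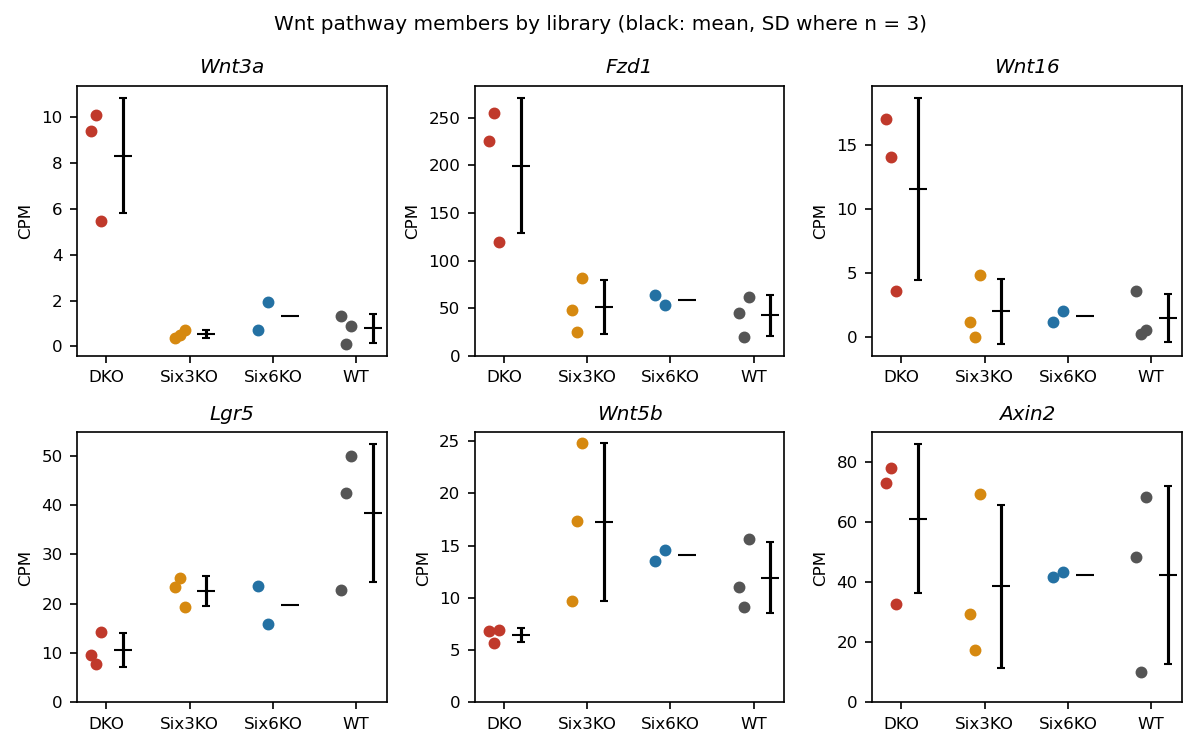
CPM (vertical axes) of Wnt3a, Fzd1, Wnt16, Lgr5, Wnt5b and Axin2 in each library of DKO, Six3KO, Six6KO and WT (points), with the group mean and, for n = 3, SD (black). The DKO points of Wnt3a (5.47 to 10.1 CPM) and Fzd1 lie above all other libraries and those of Lgr5 and Wnt5b below them, while those of Wnt16 and Axin2 overlap the others.

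Wnt5b, a ligand mostly linked to beta-catenin-independent signalling, was low in every DKO library. It had 6.80, 5.71 and 6.90 CPM in DKO, 9.67, 17.4 and 24.8 CPM in Six3KO, 13.6 and 14.5 CPM in Six6KO and 11.02, 9.13 and 15.7 CPM in WT. All DKO libraries lay below the other 8. The log2 fold change was -0.88 ± 0.32 against WT (adjusted p = 0.265), -1.41 ± 0.33 against Six3KO (adjusted p = 0.0945) and -1.12 ± 0.35 against Six6KO (adjusted p = 0.211), so none passed by edgeR. DESeq2 called it lower against Six3KO (-1.43, adjusted p = 0.00439), as did edgeR without Six3KO rh006 (adjusted p = 0.0365), and against Six6KO it passed in a fit of those groups alone (0.0332). Lens markers summed to 212 CPM in Six3KO rh006, where Wnt5b was lowest of that group, and to 16035 and 12970 CPM in rh012 and rh026. In Six6KO rh007 and rh020, with similar Wnt5b, they summed to 74.5 and 7245 CPM. The part of lens tissue in the Wnt5b levels was not tested. Wnt16, likewise named after seeing its values, is a ligand known best from bone. It had 17.0, 14.1 and 3.57 CPM in DKO, 1.16, 0 and 4.84 CPM in Six3KO, 1.16 and 2.03 CPM in Six6KO and 3.59, 0.231 and 0.510 CPM in WT. DKO libraries rh010 and rh011 lay above all others and rh021 among them, and the log2 fold change against WT of 2.92 ± 1.26 did not pass (adjusted p = 0.367) and was 4.94 without WT rh016.

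A further group of ligands was low in DKO together with markers of mesenchyme and of other tissues that border the retina. Wnt2b, a ligand of the eye's rim and of the dorsal forebrain, had 4.75, 5.88 and 1.74 CPM in DKO, 24.6, 1.44 and 42.7 CPM in Six3KO, 14.3 and 26.4 CPM in Six6KO and 21.0, 2.2 and 32.5 CPM in WT. Its DKO values overlapped WT only through rh023, and Six3KO rh012 was lower than any DKO library. The log2 fold change against WT was -2.17 ± 1.12 (adjusted p = 0.484). Wnt9b, a ligand of epithelia that signals to nearby mesenchyme, had 0.082, 0.663 and 0.714 CPM in DKO, 3.95, 1.06 and 10.3 CPM in Six3KO, 3.83 and 6.53 CPM in Six6KO and 6.80, 0.578 and 8.41 CPM in WT. The DKO libraries lay below all Six3KO and Six6KO libraries but overlapped WT through rh023 (-3.41 ± 1.11 against WT, adjusted p = 0.204). Wnt6 and Wnt10a lie 6.2 kb apart on chromosome 1, on the same strand, and both are known from surface ectoderm and its derivatives. Wnt6 had 0.164, 1.66 and 3.73 CPM in DKO, 13.4, 2.21 and 35.4 CPM in Six3KO, 13.8 and 12.2 CPM in Six6KO and 26.4, 2.08 and 16.1 CPM in WT (-3.00 ± 1.2 against WT, adjusted p = 0.319). Wnt10a had 0.246, 0.745 and 1.03 CPM in DKO, 3.35, 0.576 and 9.08 CPM in Six3KO, 3.13 and 4.28 CPM in Six6KO and 6.96, 0.809 and 5.61 CPM in WT (-2.71 ± 1.02 against WT, adjusted p = 0.274). In both genes Six3KO rh012 and WT rh023 lay within the DKO range and the other libraries above it. Wnt2, known from lung and heart mesenchyme, had 0.082, 0.663 and 0.634 CPM in DKO, 4.32, 0.192 and 11.8 CPM in Six3KO, 3.48 and 8.02 CPM in Six6KO and 6.17, 0.463 and 7.90 CPM in WT. Its fold change against WT of -3.37 ± 1.34 did not pass (adjusted p = 0.313).

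Summed mesenchyme markers were 50.6 to 122 CPM in DKO, 384 in WT rh023 and 397 in Six3KO rh012, against 1279 to 3959 CPM in the other 6 libraries. All 12 markers had estimates below 0 in DKO against WT (median -4.36), of which 1 passed and fell, as did 1 of 8 surface ectoderm markers (median -2.63). With the mesenchyme score as covariate, the DKO estimates against WT were 2.14 ± 0.87 for Wnt2b, 0.36 ± 0.72 for Wnt9b, 0.98 ± 0.81 for Wnt6, 0.93 ± 0.59 for Wnt10a and 1.72 ± 0.90 for Wnt2, none of which passed. Without WT rh023 and Six3KO rh012, Wnt2b (-2.70, adjusted p = 0.0329), Wnt9b (-3.93, 0.0265), Wnt10a (-3.20, 0.0342) and Wnt2 (-3.90, 0.0331) passed as lower, and Wnt6 did not (-3.51, 0.0575). This choice was made after seeing the data. It kept only WT libraries that were rich in mesenchyme markers and lay above every DKO library for these ligands, so no conclusion is drawn from these passes. Single libraries also moved Wnt6 (-4.02 without rh021, -2.28 without rh016) and Wnt2b (-1.51 without rh024). DESeq2 called Wnt9b lower against WT (adjusted p = 0.0222) and Wnt9b (0.023) and Wnt6 (0.0368) lower against Six3KO. Pigment epithelium markers, 7 of 8 measured, summed to 310, 341 and 99.7 CPM in DKO, 858, 27.6 and 1583 CPM in Six3KO, 507 and 1775 CPM in Six6KO and 1604, 50.3 and 774 CPM in WT. These sums too were lowest in DKO, Six3KO rh012 and WT rh023, with DKO rh010 and rh011 the highest among these libraries. The median estimate of the markers in DKO against WT was -2.78 (0 of 7 passed). Estimates ran from -3.93 to 0.56, and only that of Mitf lay above 0. The medians were -3.12 for 9 lens markers (0 passed) and -1.59 for 8 blood vessel markers (1 fell). The 1 that fell was Kdr (edgeR adjusted p = 0.0274), which stood at 77.1 to 204 CPM over all libraries. Pecam1 of the same list ranged from 1.06 to 49.4 CPM (adjusted p = 0.732). The part of bordering tissue in these ligand levels was not tested further than by these fits. The other 5 ligands, Wnt3, Wnt4, Wnt5a, Wnt7b and Wnt11, had group means of 1.06 to 12.2 CPM in DKO and 2.19 to 27.3 CPM in WT. None of these 5 passed edgeR's test in any comparison, and DESeq2 called Wnt7b lower in DKO against Six3KO (-2.24, adjusted p = 0.0225).

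**Figure D5:**
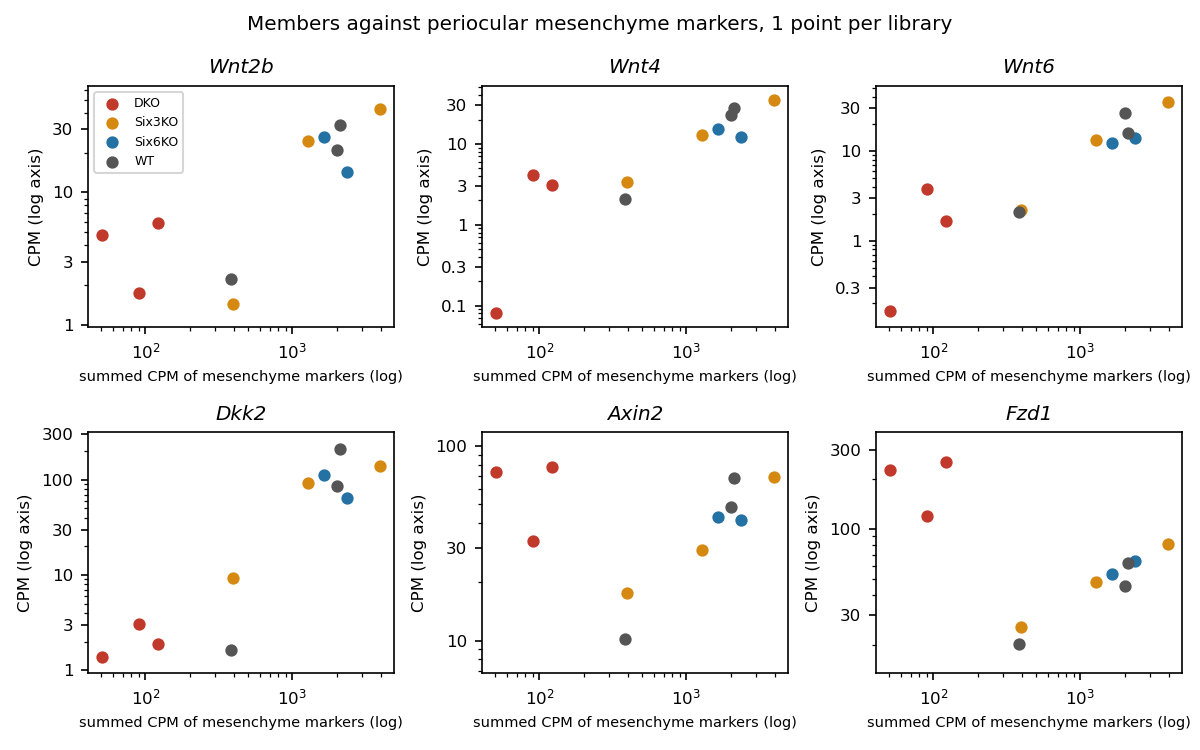
CPM of Wnt2b, Wnt4, Wnt6, Dkk2, Axin2 and Fzd1 (vertical axes, log scale) against the summed CPM of 12 periocular mesenchyme markers (horizontal axes, log scale), with 1 point for each library of DKO, Six3KO, Six6KO and WT. In Wnt2b, Wnt4, Wnt6 and Dkk2 the low points are the DKO libraries, Six3KO rh012 and WT rh023, whereas for Fzd1 (120 to 255 CPM) the DKO libraries are the highest, although their marker sums are the lowest.

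Among the Frizzled receptors, Fzd1, a receptor used in both branches of the pathway, was highest in every DKO library without passing the test. It had 225, 255 and 120 CPM in DKO, 47.8, 25.5 and 81.6 CPM in Six3KO, 63.7 and 53.5 CPM in Six6KO and 45.3, 20.1 and 62.2 CPM in WT. All DKO libraries lay above the other 8, and rh021 was again the lowest of them. The mean was 200 ± 71.1 CPM in DKO and 42.5 ± 21.2 CPM in WT (SD, n = 3 each), a log2 fold change of 2.23 ± 0.50 (adjusted p = 0.0777) or 4.70-fold. It was 1.95 ± 0.50 against Six3KO (adjusted p = 0.126) and 1.77 ± 0.57 against Six6KO (adjusted p = 0.219). Fzd1 passed against WT with the mesenchyme covariate (3.71 ± 0.43, adjusted p = 0.0133), with DESeq2 (adjusted p = 0.000152) and without WT rh023 and Six3KO rh012 (1.89, adjusted p = 0.0388). The last of these settings was chosen after seeing the data. Per kb of exon, the mean level in DKO was 64.3 CPM per kb for Fzd3, 47.6 for Fzd1 and 38.7 for Fzd5, so that Fzd1 ranked between those receptors.

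Fzd5, the receptor needed for normal growth of the mouse retina, had 249, 223 and 331 CPM in DKO, 489, 471 and 220 CPM in Six3KO, 497 and 216 CPM in Six6KO and 287, 528 and 480 CPM in WT. The groups overlapped (-0.69 ± 0.39 against WT, adjusted p = 0.537), and a gene on the opposite strand overlaps its exons, whose reads cannot be told apart without a known strand setting. Fzd9 had 5.74, 7.70 and 6.03 CPM in DKO, 4.08, 3.74 and 2.32 CPM in Six3KO, 6.96 and 4.71 CPM in Six6KO and 3.91, 4.63 and 3.19 CPM in WT. Its DKO libraries lay above those of Six3KO and WT but among those of Six6KO (0.73 ± 0.30 against WT, adjusted p = 0.326). Fzd8, a close relative of Fzd5, had 19.0, 20.5 and 15.1 CPM in DKO, 13.7, 12.5 and 23.9 CPM in Six3KO, 22.04 and 23.5 CPM in Six6KO and 17.7, 13.2 and 15.9 CPM in WT. Both Six6KO libraries lay above WT (0.55 ± 0.27, adjusted p = 0.991) and above DKO. Fzd3, a receptor of axon guidance and planar polarity, had 768, 856 and 846 CPM in DKO, 663, 722 and 456.4 CPM in Six3KO, 592 and 452 CPM in Six6KO and 585, 749 and 617 CPM in WT. Its DKO libraries lay above all others by a small margin (0.34 ± 0.18 against WT, adjusted p = 0.504), and DESeq2 called it higher against Six6KO (0.66, adjusted p = 0.0282). The other 5 Frizzled receptors had estimates of -0.51 to -0.01 in DKO against WT, and none passed.

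Every DKO library lay above every WT library for 5 members (Wnt3a, Fzd1, Fzd3, Fzd9 and Znrf3), where 9.03% of all genes tested did so, and below every WT library for 4 (Lgr5, Wnt5b, Lgr4 and Tcf7l2), against 8.46%. Above all 8 other libraries were 3 members (Wnt3a, Fzd1 and Fzd3; 4.21% of all genes) and below them 2 (Lgr5 and Wnt5b; 3.57%). These shares are near those of all genes.

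The Lrp co-receptors were even across groups. Lrp6 had 248, 261 and 254 CPM in DKO, 264, 261 and 275 CPM in Six3KO, 292 and 211 CPM in Six6KO and 229, 265 and 278 CPM in WT. The DKO libraries lay inside the WT range (-0.02 ± 0.13, adjusted p = 0.989). For Lrp5 the estimate was -0.07.

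In the R-spondin branch Lgr5, an R-spondin receptor that is itself a target of beta-catenin signalling and marks stem cells in several adult tissues, fell in DKO retinas. It had 9.59, 7.70 and 14.35 CPM in DKO, 23.3, 25.1 and 19.3 CPM in Six3KO, 23.7 and 15.9 CPM in Six6KO and 22.8, 42.4 and 50.0 CPM in WT. All DKO libraries lay below the other 8, and the single-mutant libraries lay at or below the lower part of the WT range. The mean was 10.55 ± 3.43 CPM in DKO and 38.4 ± 14.0 CPM in WT (SD, n = 3 each), a log2 fold change of -1.86 ± 0.32 (edgeR adjusted p = 0.0311), or 3.63-fold lower in DKO. It was -1.10 ± 0.32 against Six3KO (adjusted p = 0.167) and -0.91 ± 0.35 against Six6KO (adjusted p = 0.280). The single mutants stood at -0.76 ± 0.31 in Six3KO against WT (unadjusted p = 0.0359) and -0.95 ± 0.36 in Six6KO against WT (unadjusted p = 0.0253), neither of which passed. DKO departed from the sum of both by -0.14 ± 0.47 (adjusted p = 0.964). The call against WT remained without rh021 (adjusted p = 0.0244) or rh016 (0.0201) and was lost without rh010 (0.177), rh011 (0.152), rh023 (0.0741) or rh024 (0.0815), at estimates of -2.15 to -1.63. With the mesenchyme score as covariate the estimate was -2.14 ± 0.42 (adjusted p = 0.0467). Lgr5 lies on chromosome 10 (115450311 to 115587780, minus strand).

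Its relative Lgr4 was far more abundant, at 195, 179 and 230 CPM in DKO, 220, 238 and 221 CPM in Six3KO, 230 and 202 CPM in Six6KO and 235, 236 and 245 CPM in WT. The DKO libraries lay below WT but overlapped Six3KO and Six6KO (-0.25 against WT, not passed). Of the ligands of these receptors, Rspo1 had 0.410, 0.497 and 0.476 CPM in DKO, 4.74, 13.53 and 16.1 CPM in Six3KO, 3.94 and 9.2 CPM in Six6KO and 4.61, 0.347 and 17.2 CPM in WT. The DKO libraries lay below all Six3KO and Six6KO libraries and overlapped WT through rh023, which held 3 reads. The log2 fold change was -3.96 ± 1.12 against WT (adjusted p = 0.138) and -4.60 ± 1.13 against Six3KO (adjusted p = 0.115). In the mesenchyme-poor Six3KO rh012 Rspo1 was not low, unlike Wnt2b, Wnt2 and Wnt10a. Leaving out WT rh024 moved the estimate against WT to -2.44. DESeq2 called Rspo1 lower in DKO against WT (adjusted p = 0.0025), against Six3KO (0.000246) and against Six6KO (0.0162). Rspo2 had 0.328, 0.331 and 0.396 CPM in DKO, 0.852, 0.384 and 7.47 CPM in Six3KO, 1.97 and 5.99 CPM in Six6KO and 1.02, 0.231 and 0.127 CPM in WT. Its highest values were in Six3KO rh026 and Six6KO rh020, 2 of the 3 libraries richest in lens markers (9 of 9 measured, 12970 and 7245 CPM summed, against 16035 CPM in Six3KO rh012 and at most 982 CPM in the other 8). In rh012 itself Rspo2 stood at 0.384 CPM. Both rh026 and rh020 were also rich in markers of pigment epithelium (1583 and 1775 CPM) and blood vessel (335 and 336 CPM). WT rh016, with 1604 and 309 CPM of these, had Rspo2 at 1.02 CPM. The part of these tissues in the Rspo2 levels was not tested. Six3KO against WT stood at 2.5 ± 1.11 and Six6KO against WT at 2.98 ± 1.18, with adjusted p-values of 1.000 and 0.991. Without rh026 the Six3KO estimate was 0.34, and without rh020 that of Six6KO was 1.96. The other 3 genes of the branch, Rspo3, Znrf3 and Rnf43, had estimates of -1.29 to 0.79 in DKO against WT and did not pass.

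No secreted antagonist passed edgeR's test in any comparison, whereas DESeq2 called Dkk2 lower in DKO against WT (adjusted p = 0.000928), against Six3KO (0.0023) and against Six6KO (0.00873). Dkk2, which binds Lrp co-receptors and is made by periocular mesenchyme in the mouse eye, showed the widest spread. It had 1.39, 1.90 and 3.09 CPM in DKO, 93.2, 9.21 and 138 CPM in Six3KO, 64.9 and 113 CPM in Six6KO and 87.0, 1.62 and 209 CPM in WT. WT rh023 lay inside the DKO range, and every Six3KO and Six6KO library lay above it. The log2 fold change was -5.53 ± 1.52 against WT (adjusted p = 0.133), and 0.14 ± 1.11 with the mesenchyme score as covariate. Without WT rh023 and Six3KO rh012 it was -6.11 (adjusted p = 0.0041), and without WT rh024 alone -4.38. Leaving out rh023 and rh012 was chosen after seeing the data, and rh023 was the only WT library inside the DKO range.

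Sfrp2 had 480, 411 and 859 CPM in DKO, 1163, 1158 and 539 CPM in Six3KO, 1411 and 782 CPM in Six6KO and 789, 1293 and 1404 CPM in WT. DKO rh010 and rh011 lay below all others, while rh021 lay above WT rh016 (-0.99 ± 0.40 against WT, adjusted p = 0.317). An antisense transcript overlaps its exons too. Sfrp1 had 154, 166 and 99.1 CPM in DKO, 95.7, 222 and 352 CPM in Six3KO, 91.9 and 249 CPM in Six6KO and 196, 69.6 and 109 CPM in WT, with groups that overlapped (0.16 ± 0.55 in DKO against WT, adjusted p = 0.966; 0.84 ± 0.55 in Six3KO against WT, adjusted p = 1.000). Apcdd1, a membrane-bound inhibitor that is also a target of the pathway, had 5.25, 6.21 and 7.53 CPM in DKO, 17.0, 8.06 and 34.8 CPM in Six3KO, 29.7 and 12.2 CPM in Six6KO and 34.0, 7.28 and 27.0 CPM in WT. DKO overlapped WT only through rh023 (-1.85 ± 0.65, adjusted p = 0.239). The other 4 antagonists, Dkk1, Dkk3, Wif1 and Notum, had estimates of -2.10 to 0.32 in DKO against WT.

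The intracellular feedback genes did not pass in any comparison by edgeR or DESeq2. Axin2, a scaffold of the beta-catenin destruction complex and the most general readout of the pathway, had 72.9, 77.9 and 32.6 CPM in DKO, 29.3, 17.5 and 69.1 CPM in Six3KO, 41.8 and 43.2 CPM in Six6KO and 48.3, 10.2 and 68.3 CPM in WT. DKO rh010 and rh011 lay above all other libraries, and rh021 lay inside the range of WT. The log2 fold change was 0.53 ± 0.67 against WT (adjusted p = 0.857). The 2 lowest libraries, WT rh023 and Six3KO rh012, were those poorest in mesenchyme markers outside DKO. They were also the poorest of all libraries in ciliary margin markers (426 and 469 CPM summed) and in pigment epithelium markers (50.3 and 27.6 CPM). Mitf is on both of these marker lists. The ciliary margin sum was 1134, 1180 and 887 CPM in DKO rh010, rh011 and rh021 and 1190 CPM in Six3KO rh026. It was 766 and 699 CPM in WT rh016 and rh024. In DKO, Zic1, Zic2 and Ccnd2 had the largest means of this list (341, 240 and 246 CPM). Of its 9 estimates in DKO against WT, 6 lay above 0 and 3 below, so the sum does not stand for every marker. The part of any of these tissues in the Axin2 levels was not tested. With the mesenchyme score as covariate the estimate was 2.79 ± 0.58 (adjusted p = 0.0524). Without WT rh023 and Six3KO rh012 it was 0.07. Nkd1 and Nkd2, which bind Dishevelled, stood at 0.27 and -0.64. An antisense transcript overlaps exons of Axin2.

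Of the TCF/LEF factors, Tcf7l2 had 38.2, 35.4 and 37.0 CPM in DKO, 50.9, 41.2 and 54.4 CPM in Six3KO, 56.5 and 35.4 CPM in Six6KO and 40.7, 62.7 and 56.2 CPM in WT. Its DKO libraries lay below those of WT and Six3KO and overlapped Six6KO (-0.53 ± 0.20 against WT, adjusted p = 0.290). Lef1, both a nuclear effector and a target, had 15.4, 19.5 and 17.6 CPM in DKO, 13.6, 10.8 and 31.6 CPM in Six3KO, 18.7 and 18.7 CPM in Six6KO and 21.1, 9.48 and 32.9 CPM in WT. The groups overlapped (-0.27 ± 0.46 against WT, adjusted p = 0.911). Tcf7 and Tcf7l1 stood at 0.63 and -0.04.

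In the single mutants no member was called. Six3KO against WT had 0 of 48 members called by edgeR, where 0.00752% of all genes were, and 0 by DESeq2 (0.143% of all genes), with 1 higher and 1 lower at an unadjusted p under 0.05 (4.17% of members, against 3.5% of all genes). Six6KO against WT likewise had 0 called by edgeR (0% of all genes) and 0 by DESeq2 (0.015%), with 1 higher and 1 lower at an unadjusted p under 0.05 (4.17%, against 3.9%). The higher member was Rspo2 and the lower Lgr5 in each of them, and the comparisons share the WT libraries. Medians were -0.01 in Six3KO and 0.00 in Six6KO. DKO against Six6KO had 0 members called by edgeR (0.233% of all genes) and 5 by DESeq2 (5.05%), with 3 higher and 10 lower at an unadjusted p under 0.05 (27.1% of members, against 14.8% of all genes). For DKO against Six3KO DESeq2 called 9 members (5.82% of all genes). Beyond the summed single-mutant effects, DKO had 0 members called by edgeR (0% of all genes) and 1 by DESeq2, Rspo2 (1.81%). At an unadjusted p under 0.05, 2 members were higher than that sum (Wnt3a, 3.30 ± 1.01, and Fzd3, 0.74 ± 0.28) and 4 lower (Rspo2, -5.96 ± 1.63; Rspo1, -4.44 ± 1.49; Dkk2, -5.07 ± 1.93; Wnt5b, -1.65 ± 0.48), with adjusted p-values of 0.336 to 0.429. These are 12.5% of members, against 9.99% of all genes.

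Of a written list of 84 other genes of the pathway, 79 were tested. In DKO against WT 2 rose and 1 fell by edgeR, and the median was -0.03. At an unadjusted p under 0.05, 6 were higher and 10 lower (20.3%, against 13% of all genes), and against Six3KO 3 were higher and 14 lower (21.5%, against 13.2%). None of the 18 destruction complex genes, 8 transducers (Dishevelled and beta-catenin among them), 16 planar polarity genes or 2 secretion genes passed. Lrp4, a relative of Lrp5 and Lrp6 that binds the inhibitor sclerostin and, at the neuromuscular junction, agrin, rose in DKO. It had 338, 346 and 136 CPM in DKO, 65.6, 57.4 and 84.7 CPM in Six3KO, 83.9 and 53.0 CPM in Six6KO and 46.7, 44.5 and 81.0 CPM in WT, so that all DKO libraries lay above the others (2.25 ± 0.39 against WT, adjusted p = 0.0311). Shisa2 rose as well. Its family, first described in Xenopus, holds Frizzled and FGF receptors in the endoplasmic reticulum. It had 308, 305 and 233 CPM in DKO, 106, 110 and 115 CPM in Six3KO, 166 and 95.7 CPM in Six6KO and 75.6, 108 and 143 CPM in WT (1.38 ± 0.25 against WT, adjusted p = 0.0383), again with DKO above all others. Tle3, a Groucho co-repressor that binds TCF/LEF factors among others, fell in DKO. It had 41.2, 43.8 and 56.4 CPM in DKO, 117, 102 and 131 CPM in Six3KO, 154 and 91.7 CPM in Six6KO and 119, 151 and 191 CPM in WT, with all DKO libraries below the others. Its log2 fold change was -1.70 ± 0.23 against WT (adjusted p = 0.0137) and -1.31 ± 0.23 against Six3KO (adjusted p = 0.0450), the only call of the list in that comparison. In the other comparisons 0 passed by edgeR, with 7 higher and 13 lower at an unadjusted p under 0.05 in DKO against Six6KO, 1 and 0 in Six3KO against WT, 0 and 1 in Six6KO against WT, and 4 and 10 beyond the summed effects.

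Calls of these 3 genes depended on single libraries. Tle3 against WT was lost without DKO rh010 (adjusted p = 0.0920) or rh011 (0.0861), and Tle3 against Six3KO without any of the 6 libraries of that comparison (0.0572 without rh021 to 0.262 without rh010, at -1.45 to -1.21) and with the mesenchyme covariate (0.151). Lrp4 remained only without rh021 (0.00812) and was lost without rh010 (0.152), rh011 (0.149), rh016 (0.132), rh023 (0.0800) or rh024 (0.0553). Shisa2 remained without rh021 (0.0376) or rh024 (0.0460) and was lost without rh010 (0.177), rh011 (0.164), rh016 (0.102) or rh023 (0.0824), and with the mesenchyme covariate (0.103). Without WT rh023 and Six3KO rh012, adjusted p was 0.0510 for Lrp4 and 0.0614 for Shisa2.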

How the data were processed

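RNA-seq of 11 retina libraries was analysed from 1 table of counts per gene that the authors deposited. Per the submitters' processing notes, the tools were Trim Galore 0.3.7, TopHat2 2.0.13, HTSeq 0.6.1, Cufflinks 2.2.1 and Cuffdiff, and the build was mm10. The authors ran DESeq2, per the design text. Annotation, strand setting and choice of genes listed: not given in the sources used here. Columns carry a group and a library name but no replicate number.

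Counts were tested in R 4.3.3 with edgeR 4.0.16: filterByExpr (minimum count 10) kept 13292 of 13498 genes, libraries were scaled by TMM, and all 11 entered 1 robust quasi-likelihood fit with 4 group means. P-values were Benjamini-Hochberg adjusted over all genes tested, and an adjusted p under 0.05 was a call. A standard error is the size of the log2 fold change divided by sqrt(F). The test was also run on counts simulated from the DKO and WT libraries alone, with known changes and independent noise for each gene. Those simulations covered neither the fit with 4 group means nor tissue differences between libraries. No pair of replicates was a duplicate (chi-square over genes, per degree of freedom, 9.72 to 77.3). Pairs of retinas are the labelled replicates, so p-values measure the spread between such pairs.

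Members given in full are those called in any comparison, the 12 uncalled members of lowest p in DKO against WT and the 3 in each other comparison (mean of at least 1 CPM), and Axin2, Lef1, Wnt2b, Fzd5, Lrp6 and Sfrp2. Wnt9a, Wnt16, Fzd3 and Lgr4 were added after their values were seen. Wnt4, shown by library in figures only, was also added then. The members, this rule and all gene and marker lists were chosen with earlier results of these data known. GENCODE vM21 (GRCm38) gave positions, and all 48 symbols matched a single gene; exons of 11 members overlap another gene on the opposite strand. Alternatives were other scaling, no filter, DESeq2 1.42.0, the mesenchyme score as covariate, a fit of only the groups compared, and leaving out each library. A pair of alternatives without libraries that stood apart was chosen after seeing the data.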

Additional observations from a re-analysis of the deposited data

How the results depend on the processing

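No paired analysis was possible because the columns carry no replicate numbers. In DKO against WT, 2 members were called (172 genes in all), 6 with DESeq2 (773), 4 with the mesenchyme score as covariate (166), 0 in the compared groups alone (172), 10 without libraries rh023 and rh012 (425), and 0 to 1 with a library left out (20 to 205). In DKO against Six3KO, 1 was called (78 genes in all), 9 with DESeq2 (774), 2 with the covariate (45), 2 in the compared groups alone (62), 9 without rh023 and rh012 (457), 0 without rh026 and rh020 (37), and 0 to 1 with a library left out. In DKO against Six6KO, 0 were called (31 genes in all), 5 with DESeq2 (671), 11 in the compared groups alone (682) and 1 without rh023 and rh012 (271). For the departure from the sum, 0 were called and 1 with DESeq2; it uses all 4 groups already. The other settings, and all settings of the single mutants against WT, kept the count. The cause of these differences was not tested.

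With the mesenchyme covariate 25 of 48 DKO estimates against WT changed sign, among them these: Dkk2 0.14, Wnt9b 0.36, Apcdd1 0.28, Wnt10a 0.93, Wnt2 1.72, Wnt6 0.98, Wnt4 0.95, Rspo2 3.15, Lef1 1.2, Wnt2b 2.14 and Fzd3 -0.022; Dkk2 against Six6KO was 0.50. With a library left out, estimates ranged across 0 for Rspo2 (-0.87 to 0.92, the highest without rh016), Sfrp1 (-0.13 without rh023 to 0.65), Lef1 (-0.62 to 0.19, the highest without rh024), Wnt9a (-0.31 without rh023 to 0.49; -0.17 without rh011) and Lrp6 (-0.093 to 0.042; 0.0025 without rh010, 0.0050 without rh023). Without rh023 and rh012, Sfrp1 was -0.13, Wnt9a -0.31 and Lrp6 0.0050. None of these was called. Over all genes named, 553 alternative values kept direction and call, 41 lost a call, 28 gained one and 23 changed sign. Low members rest on few reads: Wnt3a had 1 to 18 per library outside DKO.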
